A study of Mus musculus with 6 samples.

Results

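The genes examined were 10 of the hepatic lipid droplet: the CIDE family (Cidea, Cideb, Cidec), 3 perilipins (Plin2, Plin4, Plin5), 3 lipases (Pnpla2, Pnpla3, Mgll) and the lipase inhibitor G0s2. They were chosen by symbol from the 56674 rows of the read count table, 1 row each. All 10 passed the filter on low counts, which left 18043 genes. Livers came from male C57BL/6 mice reared for 71 weeks on normal chow (3 libraries) or on chow containing PE-MP, polyethylene microplastic (3 libraries). All mice thus shared strain, sex and rearing time, and the sources used here give neither the dose and particle size of PE-MP nor the number of animals behind a library. The comparison asks whether long PE-MP exposure was accompanied by a difference in hepatic expression of these genes.

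Hepatocytes store triglyceride in droplets with a coat of perilipins, which limit the access of lipases to the fat core. Droplets exchange and fuse through CIDE proteins, and fatty liver is known for high expression of Cidea and Cidec, both sparse in lean liver. Stored fat is broken down in steps, by adipose triglyceride lipase (Pnpla2), hormone-sensitive lipase (Lipe) and monoglyceride lipase (Mgll), and G0s2 binds and inhibits the first of these.

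Total counts lay between 68357478 and 112566641 per library, and levels are given below as CPM, a gene's counts relative to the total of its library, scaled by TMM factors, which correct for library make-up. These factors were 0.879 to 0.923 under normal chow, against 1.07 to 1.17 under PE-MP chow, so scaling bears on every difference between chows: with total counts not scaled, the median log2 fold change of all tested genes was 0.32, against 0.018 with scaling. Mitochondrial rows took 14.9% to 16.4% of the counts of normal chow libraries and 9.71% to 10.1% of those of PE-MP libraries. Normal chow library 2 stood apart, with 11.2% of its counts on the 18S ribosomal RNA row against 0.334% to 5.98% in the others, and with a score of -0.271 on the first principal component, where normal chow libraries 1 and 3 scored -46.6 and -40.2 and PE-MP libraries scored 27.8 to 30.3. Alb, the defining hepatocyte transcript, stood at 47559 to 58520 CPM in all libraries. The other hepatocyte markers listed varied more over the libraries. Apoa1 was at 1195 to 5113 CPM, Apob at 1704 to 5141, Cyp2e1 at 4748 to 10530 and Ttr at 3971 to 6760. Cps1 was at 1748 to 2864 CPM and Serpina1a at 3062 to 3922. The labels do not say that libraries came from separate animals, so p-values reflect only how these libraries scatter, which may be technical.

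Across the 10 genes, Cidea and Cidec had the largest differences and Mgll the smallest p. None passed the test over all genes (edgeR quasi-likelihood, Benjamini-Hochberg adjusted p threshold of 0.05), where 1 gene in all passed, or 0.00554% of those tested. At an unadjusted p under 0.05 there were 4 lower under PE-MP chow (Cidea, Cideb, Cidec and Mgll) and 0 higher, against 8.82% of all tested genes lower. The 10 genes were chosen with earlier results of these data known, so such counts are a description. The log2 fold changes ran from -2.59 to 0.48 with a median of -0.33, and 7 of 10 were negative, beside a median of 0.018 and 8722 negative of 18043 over all tested genes. DESeq2 called Cidec and Mgll lower (2 of 10, against 2.55% of all genes it tested), and limma-voom called 0 of the 10. Without normal chow library 2, edgeR called Cideb, Cidec, Pnpla2 and Mgll lower (4 of 10, against 3.27%), so the calls turned on the tool and on that library.

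**Figure D1:**
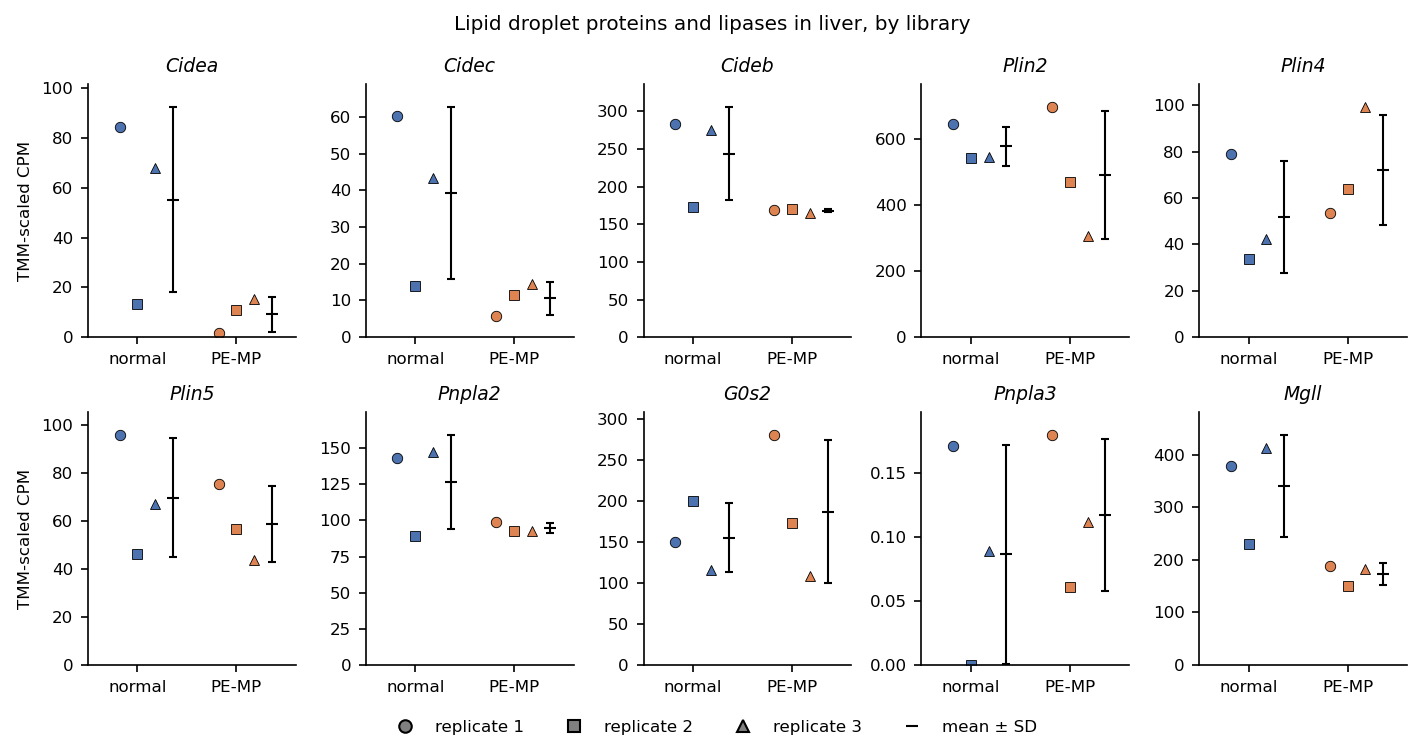
TMM-scaled CPM (linear axes from 0, a different scale in each panel) of the 10 genes in 3 normal chow libraries (blue) and 3 PE-MP libraries (orange), with symbols for the replicate number and bars for the mean ± SD. Cidea and Cidec are high in normal chow libraries 1 and 3 only, and Mgll has the clearest gap between the chows on this scale, which closes when total counts are not scaled.

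Cidea, which codes for a droplet fusion protein of brown fat and of fatty hepatocytes, stood at 84.4, 13.5 and 67.8 CPM in normal chow libraries 1, 2 and 3. In PE-MP libraries 1, 2 and 3 it was at 1.53, 10.8 and 15.3 CPM. Normal chow libraries 1 and 3 were high, normal chow library 2 lay among the PE-MP libraries, and the groups overlapped. The log2 fold change was -2.59 ± 0.99 (SE), with a 95% interval of -4.99 to -0.18 (edgeR adjusted p = 0.253). Within PE-MP chow the highest library was 9.99-fold above the lowest, a spread reached by 2.73% of tested genes. Without normal chow library 2 the log2 fold change was -3.05, and Cidea still did not pass (edgeR adjusted p = 0.107). Over each library left out in turn it ran from -3.16 without PE-MP library 3 to -2.07 without PE-MP library 1.

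Cidec, which codes for the fusion protein of large droplets in white fat and fatty liver, was at 60.2, 14.0 and 43.3 CPM under normal chow and at 5.71, 11.5 and 14.5 CPM under PE-MP chow, in library order. Its 6 libraries stood in the same order as those of Cidea, from normal chow library 1 down to PE-MP library 1. Of all tested genes, 105 had this order. The log2 fold change was -1.89 ± 0.60 (SE; edgeR adjusted p = 0.201), with a 95% interval of -3.34 to -0.43. It passed with DESeq2 (adjusted p = 0.00963) and, in edgeR, without normal chow library 2 (log2 fold change -2.29, adjusted p = 0.0484).

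Cideb, the CIDE gene of normal hepatocytes, whose protein takes part in loading triglyceride onto secreted lipoproteins, was at 283, 173 and 275 CPM under normal chow. Under PE-MP chow it stood at 169, 170 and 165 CPM. The PE-MP libraries lay within 1.03-fold of each other, and normal chow library 2 was just above them. The chows differed by -0.53 ± 0.20 on the log2 scale (SE; edgeR adjusted p = 0.237). With total counts not scaled, the groups overlapped and the log2 fold change was -0.24. In GENCODE M21 (build GRCm38), 1136 of the 1488 exonic bases of Cideb (76.3%) also belong to Nop9, a nucleolar RNA-binding protein gene on the opposite strand. The kit keeps the strand, but whether the counting used it is not stated, and without strand the reads of both genes cannot be told apart. Nop9 itself went from 64.9 ± 8.03 to 44.0 ± 2.38 CPM (SD, n = 3 per chow), or -0.56 ± 0.13 (SE) as a log2 fold change (edgeR adjusted p = 0.136).

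The make-up of the CIDE family does not depend on library scaling. Per kilobase of exon, Cideb made up 63.8%, 85.5% and 68.7% of CIDE transcripts in normal chow libraries 1, 2 and 3. Its shares under PE-MP chow were 96.2%, 87.8% and 83.8%. Cidea took 25.4%, 8.91% and 22.6%, against 1.16%, 7.42% and 10.3%, and Cidec 10.9%, 5.55% and 8.67%, against 2.60%, 4.76% and 5.90%. By these counts Cideb had the largest share in every library, and the shares of all 3 genes overlapped between chows through normal chow library 2. The overlap with Nop9 may have raised or lowered the counts of Cideb, so all these shares and the next ratio carry that limit. The log2 ratio of Cidec to Cideb counts averaged -2.84 ± 0.71 under normal chow, against -4.09 ± 0.71 under PE-MP chow (SD, n = 3 per chow; two-sided exact permutation p = 0.2).

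**Figure D2:**
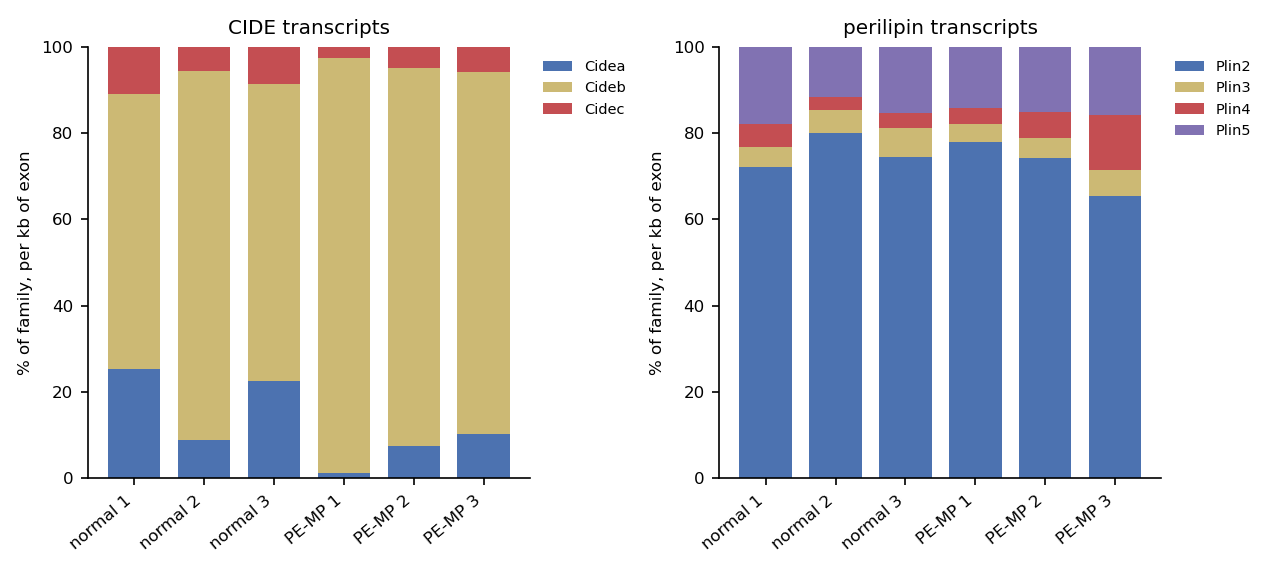
Share of each gene in the CIDE transcripts (left) and in the transcripts of 4 perilipins (right), in percent of the family's CPM per kilobase of exon, with 1 stacked bar per library. Cidea and Cidec take most in normal chow libraries 1 and 3, and Plin4 takes most in PE-MP library 3 (12.8%).

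Since Cidec has distinct transcription starts, and its counts add all of its transcripts, the windows around both starts are shown, from 250 bases before to 50 after each (RefSeq, GRCm38.p6, minus strand, printed 5′ to 3′). The upstream start lies in chr6:113435711-113436010 and the downstream one in chr6:113434715-113435014. Windows were found for 9 of the 10 genes. Motifs searched on both strands were the DR1 element bound by PPAR with RXR (a direct repeat of AGGTCA with 1 base between, in 0.0396% of 32851 promoter windows of this length), its repeat unit AGGTCA alone (16.3%), the E-box CACGTG (7.15%), the TATA box as TATAAA (13.6%) and the CCAAT box (37.4%). Capitals mark matches, and neither Cidec window holds one.
Cidec, upstream start: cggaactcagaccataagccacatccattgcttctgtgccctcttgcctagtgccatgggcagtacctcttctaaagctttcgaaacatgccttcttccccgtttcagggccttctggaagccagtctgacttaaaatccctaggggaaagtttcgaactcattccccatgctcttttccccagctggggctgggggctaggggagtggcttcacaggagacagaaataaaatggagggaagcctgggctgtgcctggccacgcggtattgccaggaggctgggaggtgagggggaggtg
Cidec, downstream start: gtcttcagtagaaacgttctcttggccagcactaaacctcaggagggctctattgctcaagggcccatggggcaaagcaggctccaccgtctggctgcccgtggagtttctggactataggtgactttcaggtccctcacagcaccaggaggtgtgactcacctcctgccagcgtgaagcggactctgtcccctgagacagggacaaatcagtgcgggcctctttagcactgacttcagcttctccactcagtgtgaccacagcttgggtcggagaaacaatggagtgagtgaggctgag

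Other genes shared the pattern of Cidea and Cidec, and the following were looked up after it was seen. All 18043 tested genes were searched. In 21 tested genes with a mean of at least 1 CPM, normal chow libraries 1 and 3 were both at least 2.5-fold above each other library, and Cidea and Cidec are 2 of these. The ratio was largest for Camk1d, at 14.2, 0.250 and 8.37 CPM under normal chow against 0.180, 0.244 and 0.186 under PE-MP chow. Lpp, Mta2 and Vps13d also met the criterion. The genes described next are a choice from the 21 and do not stand for the rest. Creb3l3, which codes for the liver transcription factor CREBH that acts on lipid metabolism, was at 299, 12.6 and 306 CPM under normal chow and at 20.0, 21.4 and 13.5 CPM under PE-MP chow (log2 fold change -3.50 ± 1.08, SE; edgeR adjusted p = 0.198). Cfd, the gene of the complement protease adipsin, was at 9.07, 2.21 and 12.4 CPM against 0.243, 1.31 and 1.43. Pltp, the gene of the phospholipid transfer protein of plasma, was at 195, 36.6 and 177 CPM against 27.0, 35.6 and 51.3. B430212C06Rik, a noncoding transcript on the strand opposite Cidea that shares 0 exonic bases with it, was at 2.51, 0.449 and 2.84 CPM against 0.180, 0.549 and 0.651. That normal chow library 2 lay near the PE-MP libraries in these genes follows from how they were chosen. By likeness over the 6 libraries (Pearson r of log2 CPM, among 12565 genes), the closest to Cidec were Dhrs7 (r = 0.998), Sh3d21 (0.997) and Phpt1 (0.994). With so few libraries and so many genes, such r values are a description, and they leave out the size of a change. Cidec ran from 5.71 to 60.2 CPM, against 19.8 to 46.8 for Dhrs7, 1.06 to 2.36 for Sh3d21 and 9.86 to 16.8 for Phpt1.

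**Figure D3:**
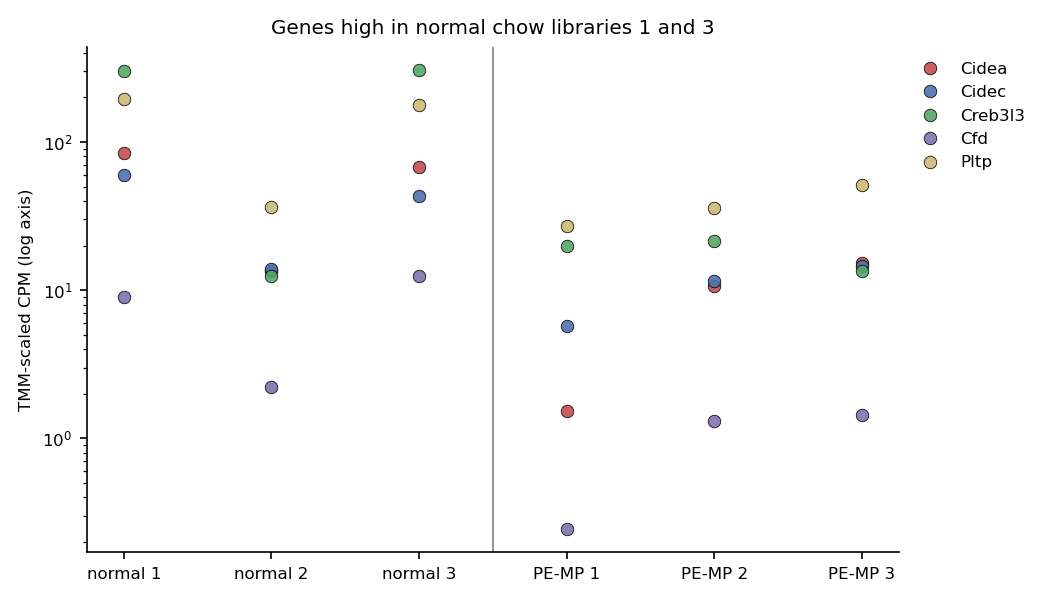
TMM-scaled CPM (log axis) of Cidea, Cidec, Creb3l3, Cfd and Pltp in each library, normal chow left of the line and PE-MP chow right of it. All 5 meet the criterion of being high in normal chow libraries 1 and 3, with Creb3l3 at 299 and 306 CPM there and at 12.6 to 21.4 CPM elsewhere. They are a choice from the 21 genes that met it.

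Because fat cells also express Cidea, Cidec and Plin4, 8 adipocyte markers are given beside them. Of the 4 defining ones, Lep had 0 counts in every library. Plin1 had 0, 0 and 0 counts under normal chow, against 7, 0 and 5 under PE-MP chow, and Adipoq had 0, 0 and 2 against 10, 0 and 5. Adrb3, the last of the 4, had 58, 194 and 66 counts against 114, 161 and 110, with its highest value in normal chow library 2. Retn, the resistin gene, went the other way from Plin1 and Adipoq, with 18, 11 and 35 counts under normal chow against 0, 0 and 0 under PE-MP chow. Retn and Cfd were highest in normal chow libraries 1 and 3, as Cidea and Cidec were. Both were lower in every PE-MP library than in any normal chow library, with or without scaling. Of all tested genes, this held for 11.8% with scaling and 2.65% without. All 5 tested markers had a negative log2 fold change (median -0.19), beside 8722 negative of 18043 over all tested genes. At an unadjusted edgeR p under 0.05, Retn and Cfd were lower (2 of 5, against 8.82% of all tested genes). Past the adjusted threshold there were 0. Adrb3, Fabp4 and Lipe had log2 fold changes of -0.16, -0.19 and -0.19. The summed level of the 8 markers was 29.1, 20.3 and 36.1 CPM under normal chow, against 17.8, 20.7 and 18.1 CPM under PE-MP chow, again highest in normal chow libraries 1 and 3, with Lipe the largest part in each library. The part of fat cell RNA in the Cidea and Cidec values was not tested. The brown fat marker Ucp1 had 0 counts in every library. Kupffer cell markers were on the higher side under PE-MP chow (5 of 5 with a positive log2 fold change, summed 77.4 to 105 CPM against 106 to 161 CPM). At an unadjusted edgeR p under 0.05, Clec4f, Timd4 and Vsig4 were higher (3 of 5, against 9.10% of all tested genes). The same 3 were higher in every PE-MP library on the TMM scale, against 14.2% of tested genes, and 0 of 5 passed the adjusted threshold. Sinusoidal endothelium markers were on the higher side too (4 of 4 positive, summed 58.7 to 74.8 CPM against 76.3 to 112 CPM), with 0 at an unadjusted p under 0.05. Over all tested genes, 9321 of 18043 were positive. Stellate cell markers (4 of 6 negative, median log2 fold change -0.17) were mixed. Monocyte-derived or lipid-associated macrophage markers (3 of 5 negative, median -0.16) were mixed too. The part of these cell types in the results was not tested. In bulk liver, fewer cells of a type and less RNA per cell cannot be told apart.

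Plin2, the main perilipin of hepatocytes and a gene that follows their fat load, was at 648, 543 and 547 CPM under normal chow. Under PE-MP chow it was at 697, 471 and 308 CPM. The highest and the lowest library were both PE-MP libraries. Its log2 fold change was -0.24 ± 0.29 (SE; edgeR adjusted p = 0.692), with a 95% interval of -0.92 to 0.45. With total counts not scaled it was 0.048, and without PE-MP library 3 it was 0.0014, so its direction was not settled. The Plin2 window (RefSeq, GRCm38.p6, chr4:86670010-86670309, minus strand) is shown for contrast with Cidec, since it holds the repeat unit AGGTCA on its reverse strand, a CCAAT box, and an E-box that begins at -4 from the start.
Plin2: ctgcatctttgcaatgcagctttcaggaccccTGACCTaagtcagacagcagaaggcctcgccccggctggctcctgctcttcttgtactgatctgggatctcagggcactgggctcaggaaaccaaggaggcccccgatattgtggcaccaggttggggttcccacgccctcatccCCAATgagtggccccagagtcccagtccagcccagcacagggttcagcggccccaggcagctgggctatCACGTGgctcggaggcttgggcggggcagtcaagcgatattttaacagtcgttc

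Plin5, the perilipin of oxidative tissues that tethers droplets to mitochondria, was at 95.6, 46.3 and 66.9 CPM under normal chow and at 75.4, 56.6 and 43.9 CPM under PE-MP chow. The groups overlapped, at a log2 fold change of -0.25 ± 0.31 (edgeR SE and adjusted p = 0.699), or 0.035 with total counts not scaled and 0.045 without normal chow library 1. Plin4, a perilipin of nascent droplets that is abundant in white fat, was at 79.1, 33.6 and 42.2 CPM against 53.6, 63.8 and 99.0. PE-MP library 3, which was lowest for Plin2 and Plin5, was highest for Plin4. The log2 fold change of Plin4 was 0.48 ± 0.38 (SE; edgeR adjusted p = 0.532), and it ran from 0.18 without PE-MP library 3 to 0.92 without normal chow library 1. Its log2 ratio to Plin2 averaged -3.58 ± 0.50 under normal chow, against -2.74 ± 1.04 under PE-MP chow (SD, n = 3 per chow; exact permutation p = 0.3). That of Plin5 to Plin2 averaged -3.11 ± 0.40 and -3.03 ± 0.20 (exact permutation p = 0.9). Among the transcripts of Plin2, Plin3, Plin4 and Plin5 per kilobase of exon, Plin2 took 75.6% ± 4.09 under normal chow, against 72.6% ± 6.50 under PE-MP chow (SD, n = 3 per chow). Closest to Plin2 in pattern, whatever the size of the change, were Slc25a26 and Zfp316 (both r = 0.979) and Srrt (0.978).

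Pnpla2, the gene of adipose triglyceride lipase, was at 143, 89.4 and 147 CPM under normal chow and at 98.6, 92.9 and 92.7 CPM under PE-MP chow. Normal chow library 2 was the lowest of the 6 libraries. Its log2 fold change was -0.42 ± 0.20 (SE; edgeR adjusted p = 0.323), -0.12 with total counts not scaled and -0.62 without normal chow library 2, where it passed (adjusted p = 0.0347). G0s2, its inhibitor, was at 150, 199 and 116 CPM against 280, 172 and 109. The ranges were nested, with PE-MP library 1 the highest and PE-MP library 3 the lowest. The log2 fold change of G0s2 was 0.27 ± 0.37 (SE; edgeR adjusted p = 0.730), and -0.14 without PE-MP library 1. The log2 ratio of G0s2 to Pnpla2 counts was 0.072, 1.16 and -0.34 under normal chow, against 1.51, 0.89 and 0.23 under PE-MP chow (difference 0.58, exact permutation p = 0.4). It thus overlapped between chows.

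Mgll, which codes for the lipase of the last step from monoglyceride to glycerol and fatty acid, was at 378, 229 and 412 CPM under normal chow. Under PE-MP chow it was at 188, 149 and 182 CPM. All 3 PE-MP libraries lay below all normal chow libraries, as they also did for Cideb, so 2 of 10 genes parted the chows downwards, against 11.8% of tested genes. Between chows, the log2 fold change was -0.97 ± 0.23 (SE; edgeR adjusted p = 0.141), with a 95% interval of -1.53 to -0.41. Mgll passed with DESeq2 (adjusted p = 0.0103) and in edgeR without normal chow library 2 (log2 fold change -1.19, adjusted p = 0.0333). With total counts not scaled, the log2 fold change was -0.67 and normal chow library 2 (202 CPM) lay within the PE-MP range (163 to 213 CPM). None of the 10 genes parted the chows downwards on that scale, against 2.65% of tested genes.

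Set against Pnpla2 in the same library, which takes scaling out, Mgll still parted the chows. The log2 ratio of Mgll to Pnpla2 counts was 1.40, 1.36 and 1.48 under normal chow, against 0.93, 0.69 and 0.97 under PE-MP chow. Here normal chow library 2 sided with its own group. The difference was -0.55 (exact permutation p = 0.1, which 3 against 3 libraries cannot go below), with a Benjamini-Hochberg adjusted p of 0.5 over the 5 ratios compared. Without each library in turn it lay between -0.61 and -0.46. The window of the upstream Mgll start (RefSeq, GRCm38.p6, chr6:88724162-88724461, plus strand) is shown as that of the gene with the clearest gap. It holds CACGTG at -44 and 32 CG dinucleotides, a number not exceeded in 91.4% of windows, whereas the Cidec windows hold 6 and 7.
Mgll, upstream start: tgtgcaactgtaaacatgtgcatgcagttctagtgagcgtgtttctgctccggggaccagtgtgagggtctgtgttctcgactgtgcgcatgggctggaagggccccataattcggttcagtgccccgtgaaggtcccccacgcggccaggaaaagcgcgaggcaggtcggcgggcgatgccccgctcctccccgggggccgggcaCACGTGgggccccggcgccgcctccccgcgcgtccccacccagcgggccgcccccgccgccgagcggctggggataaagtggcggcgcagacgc

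**Figure D4:**
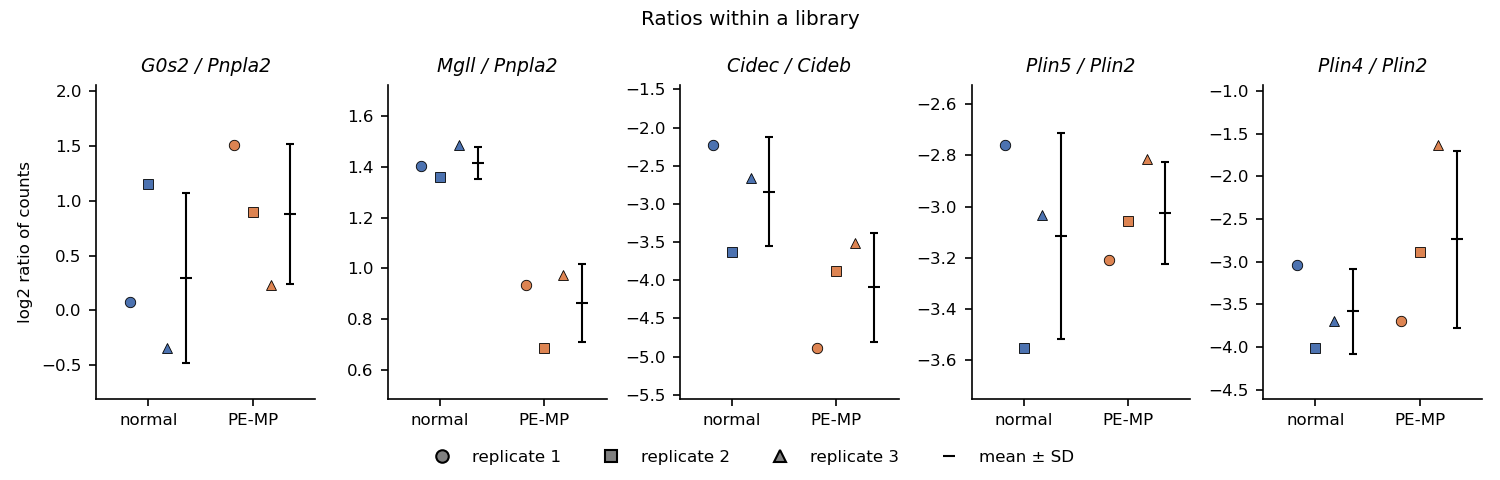
Log2 ratio of raw counts of 2 genes within each library (a different scale in each panel), with symbols for the replicate number and bars for the mean ± SD. The ratio of Mgll to Pnpla2 parts the chows, at 1.36 to 1.48 against 0.69 to 0.97, and the other 4 ratios overlap.

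Pnpla3, a droplet lipase and acyltransferase known for its link to human fatty liver, was near the detection limit in these mice. It had 12, 0 and 9 counts under normal chow, against 17, 5 and 12 under PE-MP chow, where a count of 0 allows up to 3 counts. With a log2 fold change of 0.42 ± 0.99 (SE), its 95% interval ran from -1.95 to 2.78 (edgeR adjusted p = 0.853), and no difference was detectable at this depth.

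Between genes, levels were compared per kilobase of exon, where the value of Cideb carries the limit of its overlap with Nop9. Under normal chow, G0s2 (178 ± 48.0 CPM per kilobase), Plin2 (165 ± 16.9) and Cideb (164 ± 41.4) were highest and did not differ beyond their spread (SD, n = 3). Mgll (67.0 ± 19.1), Cidea (49.5 ± 33.3), Pnpla2 (41.9 ± 10.7) and Plin5 (33.4 ± 11.9) followed, each within the spread of its neighbours, then Cidec (21.1 ± 12.6), Plin4 (8.94 ± 4.18) and Pnpla3 (0.0560 ± 0.0553). Under PE-MP chow, Plin4 (12.5 ± 4.12) stood before Cidea (8.25 ± 6.30) and Cidec (5.70 ± 2.41), each within the spread of the next, while the values of Plin4 and Cidec did not overlap, and Mgll (34.1 ± 4.10) was close to Pnpla2 (31.4 ± 1.12).

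**Figure D5:**
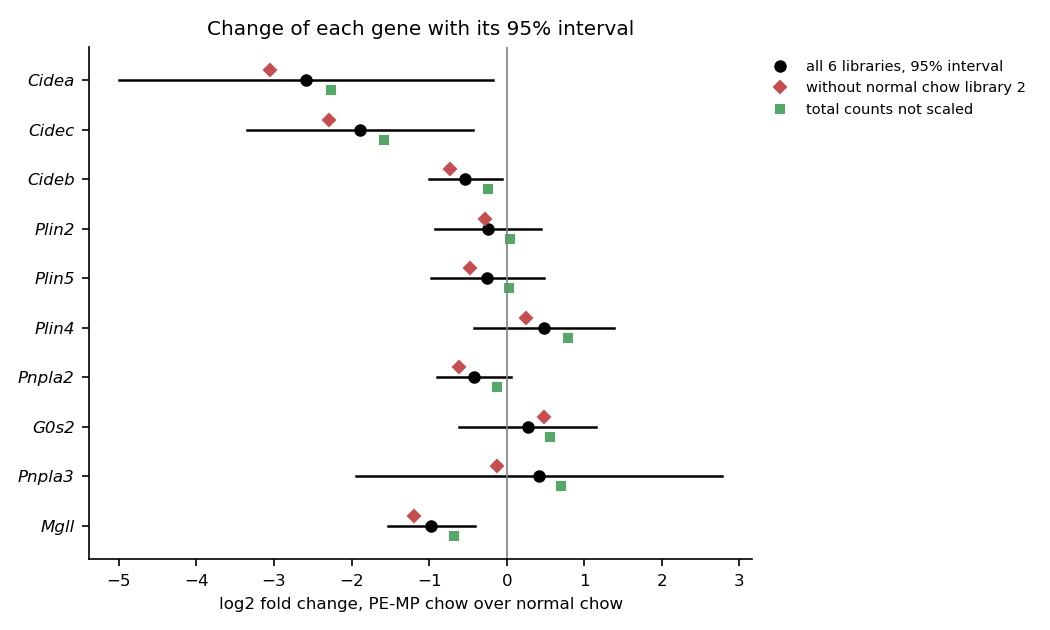
Log2 fold change of each gene, PE-MP chow over normal chow (horizontal axis): edgeR estimate from all 6 libraries with its 95% interval (black), without normal chow library 2 (red) and with total counts not scaled (green). The intervals of Cidea, Cidec, Cideb and Mgll lie below 0, and Plin2 and Plin5 change sign when counts are not scaled.

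Other genes of droplet formation and lipolysis were read from a list of 35, all found, of which 33 were tested. This list too was chosen with earlier results of these data known, so counts from it are a description. None passed edgeR's threshold, and the median log2 fold change was -0.16. At an unadjusted p under 0.05, 8 of 33 were lower, against 8.82% of all tested genes, and 0 higher, against 9.10%. The chows did not overlap for 8 that were lower under PE-MP chow (11.8% of all tested genes) and 2 that were higher, Hsd17b13 and Spast (14.2%). DESeq2 called 3 of them lower, Fitm1, Lipa and Mettl7a1, against 2.55% of all genes it tested, and limma-voom called 0. Those with the smallest p were Mettl7a1, a droplet-associated methyltransferase-like protein (282 ± 17.2 to 201 ± 5.80 CPM, SD, n = 3 per chow), the lysosomal acid lipase Lipa (306 ± 49.5 to 195 ± 2.21), Fitm1, which takes part in droplet formation (117 ± 48.9 to 49.9 ± 6.68), and the seipin gene Bscl2 (62.0 ± 15.8 to 34.9 ± 9.02). All 4 were lower in every PE-MP library than in any normal chow library on the TMM scale, but with total counts not scaled this held for Lipa and not for Mettl7a1, Fitm1 or Bscl2. Their log2 fold changes were -0.49, -0.65, -1.23 and -0.83 (edgeR adjusted p of 0.135, 0.135, 0.154 and 0.198). The lipase co-activator Abhd5 was at 23.3 ± 1.79 and 22.7 ± 0.391 CPM (SD, n = 3 per chow), with a 95% interval of the log2 fold change of -0.31 to 0.24. With total counts not scaled, Abhd5 was higher in every PE-MP library (24.6 to 26.2 CPM) than in any normal chow library (18.8 to 22.5 CPM), as were 34.6% of all tested genes.

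Among 10 transcription factors and co-activators of lipid genes, 0 passed with edgeR or limma-voom. At an unadjusted edgeR p under 0.05, 1 was higher (Mlxipl) and 1 lower (Creb3l3). These numbers are near the shares of all tested genes, 9.10% higher and 8.82% lower. DESeq2 called both genes in the same directions, among 555 higher and 540 lower of the 21195 genes it tested. The smallest p belonged to Mlxipl, the carbohydrate-responsive factor ChREBP, at 63.1, 57.7 and 52.5 CPM under normal chow and 148, 120 and 182 CPM under PE-MP chow. It parted the chows fully in the upward direction, as did 14.2% of all tested genes (log2 fold change 1.38 ± 0.18, SE, with edgeR adjusted p = 0.0724). Creb3l3, described above, came next, followed by the PPAR partner Rxra (log2 fold change -0.48 ± 0.22, SE) and the co-activator Ppargc1a (0.41 ± 0.26). Pparg, the nuclear receptor known to activate Cidec in fatty liver, was at 16.5, 12.3 and 18.9 CPM against 8.98, 13.3 and 15.1. Its ranges overlapped (log2 fold change -0.35 ± 0.24, SE; edgeR adjusted p = 0.484), and of its 6 libraries PE-MP library 1 was lowest, as for Cidea and Cidec. Pparg is named outside the rule for named genes, after its values were seen.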

How the data were processed

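Poly(A)-selected liver RNA was sequenced with a strand-keeping kit, per the labels' protocols. The authors deposited raw whole-number counts for each gene, with no normalisation. The submitters' processing notes name bcl2fastq and genome build GRCm39; the aligner, counter, annotation and strand option were not given in the sources used here. The per-library files matched the series table on all 56674 rows.

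The test was edgeR's (version 4.0.16, R 4.3.3): TMM factors, default expression filter (smallest count 10), robust quasi-likelihood F test, two-sided, Benjamini-Hochberg adjustment over 18043 genes, threshold 0.05. Standard errors came from the coefficient and its F statistic. DESeq2 1.42.0 and limma-voom (limma 3.58.1) were alternatives, beside RLE factors, filters, a replicate block, leaving out mitochondrial and 18S rows, and each library left out; unscaled total counts were chosen after seeing the data. Ratios are log2 of counts plus 0.5, with an exact permutation test over libraries. Exon lengths and overlaps came from GENCODE M21 (GRCm38), matched by symbol. The edgeR step was tested on simulated counts. Total counts per library, 68357478 to 112566641, leave counting error largest for Pnpla3, with 0 to 17 counts. Members and lists were chosen with earlier results of these data known. Named genes were all 10 members, the 4 of smallest p in each list and the 3 most alike to Cidec and Plin2. Abhd5, Nop9, B430212C06Rik, Cfd, Pltp, Pparg, Alb, Hsd17b13 and the other hepatocyte and adipocyte markers are named outside this rule. So are Camk1d, Lpp, Mta2, Vps13d, Clec4f, Timd4 and Vsig4.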

Additional observations from a re-analysis of the deposited data

How the results depend on the processing

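Over the alternatives run, Cidea, Cideb, Cidec, Pnpla2 and Mgll stayed negative and Plin4 positive in 14 of 14 settings, while Plin2, Plin5, Pnpla3 and G0s2 changed sign in some. With total counts not scaled, Plin2 was at 0.048 and Plin5 at 0.035. Leaving out 1 library at a time gave log2 fold changes of -0.57 to 0.0014 for Plin2, 0.18 to 0.92 for Plin4, -0.47 to 0.045 for Plin5, -0.12 to 1.25 for Pnpla3, -0.14 to 0.53 for G0s2, -3.16 to -2.07 for Cidea, -0.73 to -0.42 for Cideb, -2.29 to -1.44 for Cidec, -0.62 to -0.30 for Pnpla2 and -1.19 to -0.81 for Mgll. Pnpla3 failed the filter without PE-MP library 1, so its range lacks that fit. DESeq2 gave -1.89 for Cidec and -0.98 for Mgll, both called, and so 2 of the 10 genes, and 3 of the other droplet genes. Without 1 library, 0 to 4 of the 10 genes passed, the 4 without normal chow library 2. Over all genes the count past the threshold was 1 with all libraries, 3 with RLE factors, 10 unscaled, 1095 with DESeq2, 15 with limma-voom, 23 with no filter, 22 with the stricter filter, 53 at an adjusted p under 0.1, and 1 to 1075 without 1 library. The causes were not tested. Correlations of same-numbered deviations were all positive (0.050, 0.085 and 0.18), and those of different numbers ran from -0.184 to 0.105. Not every library correlated best with its own number, so the replicate numbers were not shown to pair the libraries. The library numbered 3 had the lowest 18S share within each chow (1.15% and 0.334%), and Vps13c was nearly silent in both libraries of that number. Whether the number marks a shared batch was not tested. With the replicate block 0 genes passed over all genes, and the log2 fold changes of Cidec and Mgll were -1.74 and -0.93. Without 1 library, the difference in log2 ratio between chows ran from 0.26 to 1.01 for G0s2 to Pnpla2, from -0.61 to -0.46 for Mgll to Pnpla2, from -1.64 to -0.85 for Cidec to Cideb and from 0.29 to 1.32 for Plin4 to Plin2. For Plin5 to Plin2 it ran from -0.13 to 0.27 and changed sign when normal chow library 2 (-0.13) was left out, or PE-MP library 3 (-0.017). Depth limits Pnpla3, with at most 17 counts a library; for the others the spread between 3 libraries is the larger limit.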

Other observations

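Some droplet genes from the list of 35 varied widely within a chow. Vps13c, a lipid transfer protein gene, was at 28.1, 30.5 and 0.395 CPM in normal chow libraries 1, 2 and 3 and at 37.0, 37.4 and 0.762 CPM in the PE-MP libraries, so the library numbered 3 was nearly silent in both chows. Spast, the gene of spastin, was at 4.71, 8.30 and 23.7 CPM under normal chow and at 27.8, 32.0 and 28.9 CPM under PE-MP chow. It varied within normal chow and was higher in every PE-MP library, with or without scaling (log2 fold change 1.27, edgeR adjusted p = 0.310). Of all tested genes, 14.2% were higher in every PE-MP library with scaling and 34.6% without. Lipc, hepatic lipase, was at 37.0, 122 and 16.8 CPM against 43.1, 85.7 and 106, and Abhd6, another monoglyceride lipase, at 35.5, 12.6 and 33.8 CPM against 10.4, 2.33 and 20.5. Gm26588 lies opposite Mgll and shares 167 exonic bases with it, and for these too the strand option of the counting is not known. It was at 2.74, 2.93 and 2.82 CPM under normal chow and 5.79, 4.41 and 5.70 CPM under PE-MP chow. Its log2 fold change of 0.90 ± 0.18 (SE) had the opposite sign to that of Mgll, and neither gene passed (edgeR adjusted p = 0.128 for Gm26588). These genes were named after their values were seen.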
